A study of Sus scrofa with 8 samples.

Results

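The genes described here encode proteins of the cytosolic ribosome, with some paralogues of them, and they were measured in whole blood of 4 pregnant and 4 non-pregnant sows. A gene was taken when a RefSeq transcript of an array probe carried a pig symbol of RPL or RPS followed by a digit, or RPLP or RPSA, with the S6 kinase genes (RPS6K) left out. The rule found 32 genes among 1817 genes with a measured symbol. By symbol alone 18 were counted to the large subunit and 14 to the small subunit. The paralogues RPL26L1, RPL7L1 and RPL36AL are among the 18, and whether they are part of the mature ribosome was not examined. They were covered by 176 of the 26476 probes kept, and each gene is represented by its brightest probe over the 8 arrays.

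All sows were of the fifth parity, and blood was drawn 14 days after insemination from pregnant sows and from inseminated sows that were not pregnant. The design text lists 3 half-sib pairs and 1 unrelated pair, and the sample labels do not say which sows form a pair. Blood was mixed with a lysis solution, and total RNA with an integrity number of at least 7 was labelled with Cy3 on single-colour Agilent arrays, 1 array per sow. The spread within a group therefore holds animal and array differences together, and the p-values below measure that spread only.

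Ribosomal proteins assemble with ribosomal RNA into the small subunit, which reads the messenger RNA, and the large subunit, which joins amino acids. Cells make the proteins in matched amounts, and their messenger RNAs share a pyrimidine tract at the start that places their translation under control of the mTOR pathway. In blood these transcripts are abundant in lymphocytes and persist in reticulocytes, the youngest red cells. Inherited loss of 1 copy of genes such as RPS26, RPL5, RPL11 or RPL35 causes Diamond-Blackfan anaemia, a failure of red cell production.

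Values are log2 processed signals minus the 75th percentile of the same array, so 1 unit is a doubling, and levels of different probes are not compared because probes differ in brightness. Each of the 176 probes was well above background on all 8 arrays, and the processed intensity of the 32 representative probes lay between 1114 and 236001 with no spot saturated (0 on each array). Pregnant replicate 2 stood apart in the data as a whole, with the lowest 75th percentile signal (142, against 175 to 296) and the lowest share of probes well above background (61.7%, against 62.7% to 69.2%). The lowest correlation between any pair of arrays over the 1817 genes was 0.884. Results are also given without pregnant replicate 2. Measured markers of neutrophils (4 of 7 listed), monocytes (3 of 6), T cells (8 of 9), B cells (2 of 7), NK cells (3 of 6), erythroid cells (2 of 15) and platelets (5 of 8) were well above background on all 8 arrays.

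Ribosomal protein genes did not differ detectably between pregnant and non-pregnant sows. The differences were small and mostly in 1 direction: 29 of 32 genes had a lower mean in pregnant sows, with a median log2 difference (pregnant minus non-pregnant) of -0.14, although all 32 were higher after normexp background correction. Across all 1817 genes 55.4% had a negative difference and the median was -0.031. None of the 32 genes passed limma's test at an adjusted p of 0.05 (0 of 32, every adjusted p = 0.998), beside a background of 0% of genes called higher and 0% called lower. At an unadjusted p under 0.05 limma gave 0 of the 32 genes, against 44 of 1817 (2.42%, of which 1.6% of genes were higher and 0.826% lower in pregnant sows), and the smallest unadjusted limma p of a ribosomal protein gene was 0.191. In 0 of the 32 genes did the groups stand apart without overlap, against 25 of all genes (1.38%).

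The 95% interval of a ribosomal protein gene reached a median of 0.60 log2 units (1.51-fold) to either side, so smaller differences were not detectable with 4 sows a group. In whole blood, fewer cells of a type and less RNA per cell cannot be told apart. Direction rested on single arrays: without non-pregnant replicate 1 the median difference was 0.003 and 15 of 32 genes were negative. Without pregnant replicate 2 the median was -0.23 with 30 negative, and without non-pregnant replicate 3 it was -0.32 with 31 negative. Leaving out pregnant replicate 3 gave -0.065 with 23 negative, and leaving out non-pregnant replicate 4 gave -0.076 with 27. Within slide 1, which held replicates 1 and 3 of both groups, the median was -0.21 with 31 of 32 genes negative. Within slide 2, which held replicates 2 and 4, it was -0.063 with 20 of 32 negative.

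**Figure D1:**
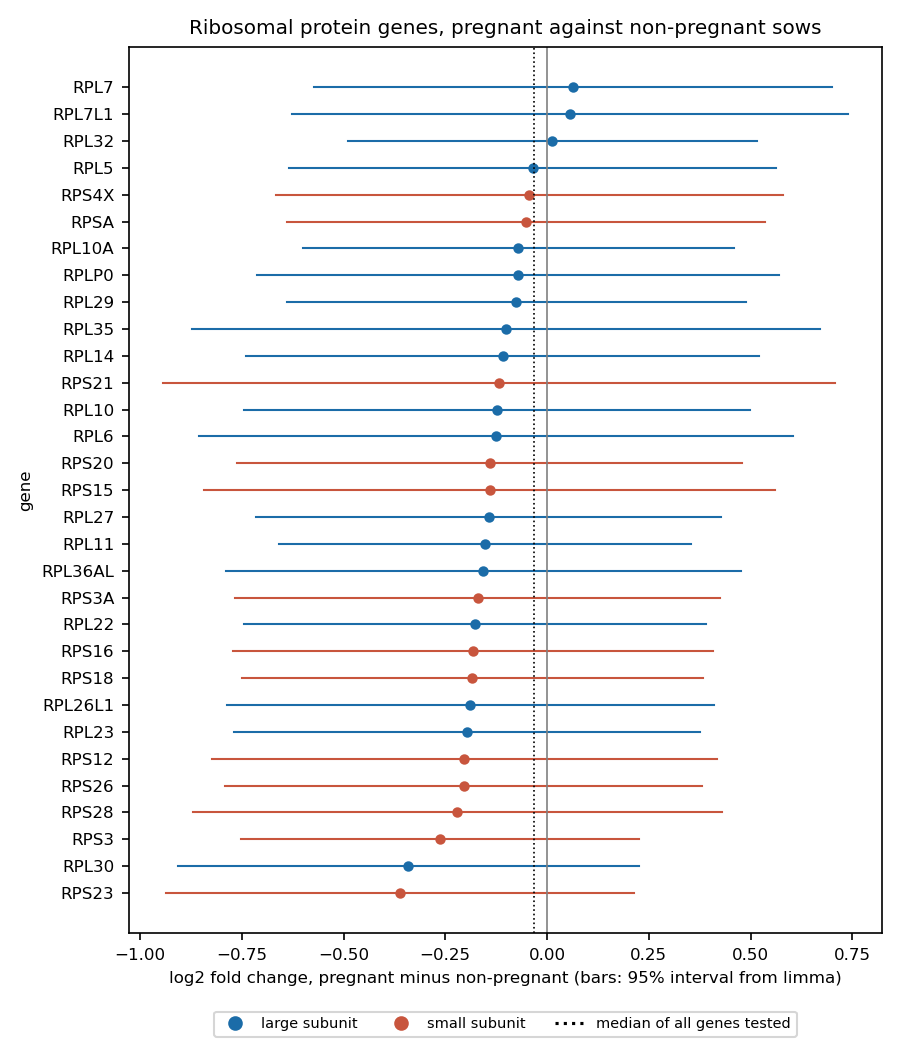
Log2 difference between pregnant and non-pregnant sows (horizontal axis) for 31 of the 32 ribosomal protein genes, with the 95% interval from limma over 4 arrays a group; the dotted line is the median of the 1817 genes tested. Every interval spans 0, and 28 of 31 points lie to the left of 0, whereas after normexp background correction all 32 differences were positive.

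Among the 18 large subunit genes the median log2 difference was -0.12, and 15 of 18 were negative. RPL30, which encodes a small RNA-binding protein of the large subunit, had the most negative difference of these. Its values were 7.19, 7.55, 7.02 and 7.15 in pregnant replicates 1 to 4 and 7.99, 7.57, 7.10 and 7.60 in non-pregnant replicates 1 to 4. In RPL30, 3 of the 4 pregnant values lay inside the non-pregnant range, so the groups overlapped, and the ratio of pregnant to non-pregnant was 0.790 (95% interval 0.533 to 1.17, limma adjusted p = 0.998). The other 2 RPL30 probes gave differences of -0.35 each, close to the -0.34 of the brightest.

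RPL5 and RPL11 enter the ribosome together with the smallest of the large subunit's RNAs, and outside the ribosome they bind the p53 regulator MDM2. RPL5 read 8.34, 8.44, 7.93 and 8.50 in the pregnant sows and 8.82, 8.47, 7.87 and 8.20 in the non-pregnant sows. RPL11 read 8.88, 9.06, 8.68 and 8.95 against 9.35, 9.03, 8.69 and 9.11. The highest array of both genes was non-pregnant replicate 1, and the log2 differences were -0.036 (SE 0.27) for RPL5 and -0.15 for RPL11, with overlapping groups and a limma adjusted p of 0.998 for each.

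RPL7 and its relative RPL7L1 had the most positive differences of all 32 genes, and these were still close to 0. RPL7 read 7.98, 8.08, 7.58 and 8.0 in pregnant and 8.47, 7.99, 7.38 and 7.54 in non-pregnant sows, a difference of 0.064. RPL7L1 read 4.58, 4.38, 4.20 and 4.95 against 5.12, 4.35, 3.88 and 4.53, a difference of 0.057. For both genes the 4 pregnant values lay inside the range of the non-pregnant ones, and limma's adjusted p was 0.998. Both differences changed sign when non-pregnant replicate 3 was left out (-0.091 and -0.14), as did RPL7 without non-pregnant replicate 4 (-0.038) and RPL7L1 without pregnant replicate 4 (-0.084).

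RPL35, which sits at the tunnel where the new protein leaves the ribosome, and RPL6 varied most among large subunit genes. RPL35 read 8.37, 9.01, 8.15 and 8.43 in pregnant sows and 9.39, 8.52, 7.86 and 8.59 in non-pregnant sows, an SD of 0.48 over 8 arrays. RPL6 read 8.46, 8.90, 8.42 and 8.59 against 9.52, 8.92, 8.12 and 8.31. In both genes the highest and the lowest arrays of all 8 were non-pregnant replicates 1 and 3, so the pregnant values lay between those of the non-pregnant group. The log2 differences were -0.10 for RPL35 and -0.13 for RPL6.

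RPLP0, the base of the stalk that recruits elongation factors and a common reference gene in expression studies, behaved differently on 1 array. It read 9.0, 9.90, 9.06 and 9.04 in pregnant sows and 9.65, 9.40, 8.86 and 9.38 in non-pregnant sows. Pregnant replicate 2 was the highest of all 8 arrays while the other 3 pregnant arrays lay below 3 of the 4 non-pregnant ones. The difference was -0.072 (SE 0.29), and without pregnant replicate 2 it was -0.29.

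All 14 small subunit genes had a lower mean in pregnant sows, with a median log2 difference of -0.18, although normexp background correction made it 0.72 with all 14 higher. RPS23, which lines the centre where the codon is read, had the most negative difference of the 32 genes. It read 9.19, 9.20, 8.65 and 8.89 in pregnant sows and 9.46, 9.22, 8.93 and 9.77 in non-pregnant sows. Pregnant replicates 3 and 4 lay below all non-pregnant arrays, and replicates 1 and 2 lay inside their range. The ratio of pregnant to non-pregnant was 0.779 (95% interval 0.522 to 1.16, limma adjusted p = 0.998), and the other 3 RPS23 probes gave log2 differences from -0.32 to -0.28.

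RPS3, which lies at the channel where messenger RNA enters and also acts in DNA repair, varied little between arrays. It read 9.64, 9.78, 9.51 and 9.47 in pregnant sows and 9.94, 9.80, 9.56 and 10.15 in non-pregnant sows. Its SD over 8 arrays was 0.23, among the 3 smallest, and its ratio of 0.833 (95% interval 0.594 to 1.17) did not pass limma's test (adjusted p = 0.998). Its log2 difference stayed between -0.36 and -0.17 with any 1 array left out, and that of RPS23 between -0.50 and -0.22.

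RPS28 read 9.06, 9.68, 8.90 and 8.88 in pregnant and 9.55, 9.20, 8.85 and 9.80 in non-pregnant sows, a log2 difference of -0.22 (SE 0.29). RPS15, a small subunit protein needed for export of the subunit from the nucleus, read 8.57, 9.13, 8.36 and 8.17 against 8.71, 8.61, 8.16 and 9.32. RPS21 read 8.34, 9.52, 8.39 and 8.09 against 9.15, 8.46, 8.15 and 9.06, the largest SD of the 32 genes (0.53). In these 3 genes pregnant replicate 2 and non-pregnant replicate 4 were high, and pregnant replicate 4 and non-pregnant replicate 3 were low, while non-pregnant replicate 1 was also high for RPS28 and RPS21.

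What the 32 genes shared most was a profile over the individual sows. The median deviation of the 32 genes from their own means was -0.074, 0.18, -0.31 and -0.13 in pregnant replicates 1 to 4 and 0.46, 0.042, -0.42 and 0.21 in non-pregnant replicates 1 to 4. The highest and the lowest sow were therefore both non-pregnant, and the 2 group means, -0.083 ± 0.20 and 0.073 ± 0.37 (SD, n = 4 each), differed by less than the spread inside either group. The profile spanned 0.88 log2 units, against 0.28 for the median deviation of all 1817 genes, which the scaling holds near 0. Some lists of fewer genes spanned a little less, such as 0.78 for 8 ribosome biogenesis genes and 0.75 for 8 T cell markers. Others spanned more, such as 0.92 for 5 platelet markers and 1.48 for 4 neutrophil markers. A span of this size is therefore not particular to ribosomal protein genes. On non-pregnant replicate 1 all 32 genes lay above the median of the other 7 arrays, by a median of 0.51. On non-pregnant replicate 3 only RPL32 did, with a median of -0.46 over the 32 genes, and on pregnant replicate 3 again only RPL32, with a median of -0.36. The highest value fell on non-pregnant replicate 1 for 17 genes, on pregnant replicate 2 for 7 and on non-pregnant replicate 4 for 7, and the lowest on non-pregnant replicate 3 for 24.

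**Figure D2:**
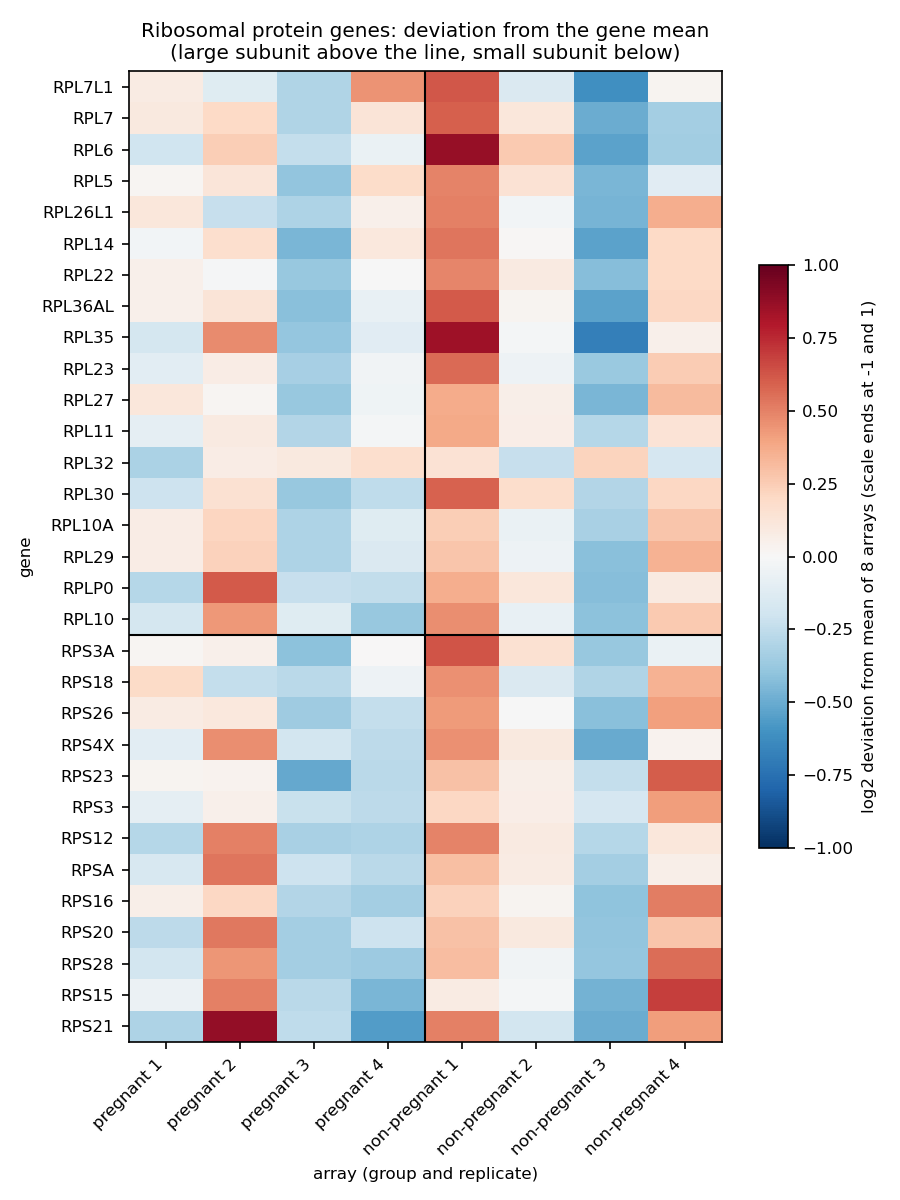
Log2 deviation of 31 of the 32 ribosomal protein genes (rows, large subunit above the line) from their own means over the 8 arrays (columns, pregnant to the left of the line). Non-pregnant replicate 1 is above the mean for all 31 genes shown, and non-pregnant replicate 3 is below it for all but RPL32.

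Pairs of ribosomal protein genes correlated over the 8 arrays with a median Pearson r of 0.759 (496 pairs, 83.7% of them above 0.5). All pairs of the 1817 genes had a median of 0.070 (23.0% above 0.5). Among other lists the median was 0.648 for 7 proteasome subunits and 0.644 for 5 initiation factors. It was 0.416 for 8 ribosome biogenesis genes and 0.100 for 6 other genes with the pyrimidine tract. These correlations describe 8 arrays that all pairs share, and bright probes on 1 array also share its scaling. The median was 0.795 within the large subunit, 0.763 within the small subunit and 0.741 between them. Removing the group means left the median of the 496 pairs at 0.757. Leaving out pregnant replicate 2 raised it to 0.817, and leaving out non-pregnant replicate 4 raised it to 0.819. The lowest value with any 1 array left out was 0.688, without non-pregnant replicate 3.

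RPL10A and RPL29 gave the highest pair (r = 0.995), followed by RPLP0 and RPSA (0.991), each over 8 arrays. RPL5 correlated with its partner RPL11 at 0.879 and with RPL7 at 0.952, and RPL7 correlated with RPL7L1 at 0.791. RPL36AL, an expressed copy of RPL36A, followed the median of the other members most closely (0.968), then RPL11 (0.967), RPL23 (0.953) and RPL35 (0.943). RPL36AL read 6.88, 6.96, 6.41 and 6.76 in pregnant and 7.44, 6.86, 6.29 and 7.04 in non-pregnant sows. RPL23 read 8.25, 8.42, 8.02 and 8.32 against 8.92, 8.30, 7.98 and 8.61. In both genes the pregnant values lay inside the non-pregnant range. The least similar were RPL32 (-0.228), RPL7L1 (0.659), RPS18 (0.702) and RPS15 (0.710), and RPS18 read 7.77, 7.33, 7.31 and 7.52 against 8.04, 7.43, 7.27 and 7.93, low on pregnant replicate 2 where most small subunit genes were high.

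Large and small subunit genes followed one another over the sows, but not in step on every array. Their median profiles correlated with an r of 0.856 (Spearman's rho 0.905, n = 8). Without non-pregnant replicates 1 and 3, the 2 arrays most distant from the profile's median, r was 0.845. The same 2 arrays were left out of the list correlations below. The large subunit median minus the small subunit median was 0.092, -0.31, -0.030 and 0.23 in pregnant replicates 1 to 4 and 0.13, -0.043, -0.049 and -0.18 in non-pregnant replicates 1 to 4. Small subunit genes were thus relatively higher on pregnant replicate 2 and non-pregnant replicate 4, and large subunit genes on pregnant replicate 4. Probes that the main values did not use gave 0.12, -0.21, -0.012 and 0.27 in pregnant sows and 0.18, -0.018, -0.007 and -0.18 in non-pregnant sows (15 large and 14 small subunit genes), the same sign on every array. Without the paralogues RPL26L1, RPL7L1 and RPL36AL the offset kept its sign on each array, but it was 0.0095 on pregnant replicate 1 and -0.0073 on non-pregnant replicate 2. Each group held arrays of both signs. Pregnant replicate 2 and non-pregnant replicate 4 also had the lowest 75th percentile signals (142 and 175) and the fewest probes well above background (61.7% and 62.7%), and the part of signal in the offset was not tested.

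**Figure D3:**
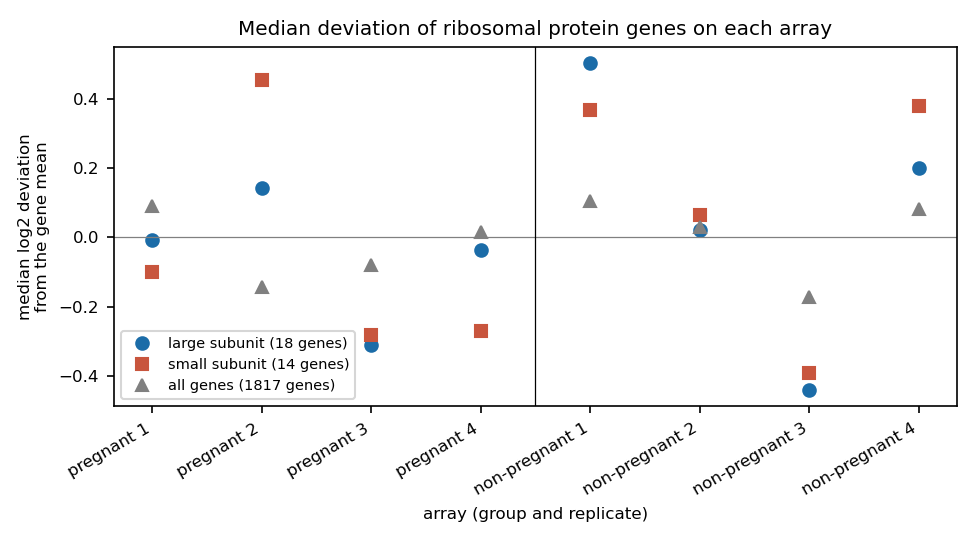
Median log2 deviation from the gene mean on each array for 18 large subunit genes, 14 small subunit genes and all 1817 genes. The large subunit is highest on non-pregnant replicate 1 and the small subunit on pregnant replicate 2, both are lowest on non-pregnant replicate 3, and the small subunit lies 0.31 above the large subunit on pregnant replicate 2.

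A principal component analysis of the 32 genes over 8 arrays gave a first component with 73.6% of the variance, on which 31 genes had a positive loading and RPL32 one of -0.023. The second component held 12.8%, and on it 14 of 18 large subunit genes were positive and 12 of 14 small subunit genes were negative. RPL7L1 (0.39), RPL7 (0.28), RPL5 and RPL6 (0.24 each) lay at its positive end, and RPS21 (-0.34), RPS15 (-0.33) and RPS28 (-0.23) at the negative end. The large subunit genes on the small subunit side were RPL10, RPL10A, RPL29 and RPLP0, and the small subunit genes on the other side were RPS18 and RPS3A. RPS3A correlated with RPL5 at 0.955, whereas RPS21 and RPL7L1 reached 0.241 and RPS15 and RPL7L1 0.149 (n = 8 arrays).

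On some arrays much of the gene-specific part of these differences was seen again in separate probes of the same genes. On pregnant replicate 2 the difference from the median of the other 7 arrays ran from -0.28 for RPL26L1 to 1.13 for RPS21, with a median of 0.12 for the large and 0.57 for the small subunit. RPS21 gave 1.14 from its other probes, and RPLP0 0.84 and 0.98 in its brightest and its other probes. On non-pregnant replicate 4 RPL7 lay 0.45 below the other arrays in its brightest probe and 0.43 below in its other probes, while RPS28 lay 0.74 and 0.76 above them. Across the 29 genes with more than 1 probe, the brightest probe and the mean of the others were correlated on each array. The values were 0.884 on pregnant replicate 2, 0.909 on pregnant replicate 4 and 0.908 on non-pregnant replicate 4. The lowest was 0.469 on non-pregnant replicate 3, and the remaining arrays ran from 0.575 to 0.814. Genes are not independent replicates, and the probes of a gene share its array and its labelled sample. Other genes were less alike between probes on pregnant replicate 2: RPL29 gave 0.29 in its brightest probe and -0.27 in the others, RPS4X 0.57 and 0.13, and RPS15 0.56 and 0.17. The sign also differed there for RPL11 (0.11 and -0.20), RPL5 (0.11 and -0.17) and RPS3 (0.14 and -0.14). By smaller amounts it differed, among others, for RPL23 (0.13 and -0.023), RPS23 (0.009 and -0.092) and RPL32 (-0.024 and 0.090). On non-pregnant replicate 4 it differed for RPLP0 (0.32 and -0.14) and RPSA (0.22 and -0.12).

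**Figure D4:**
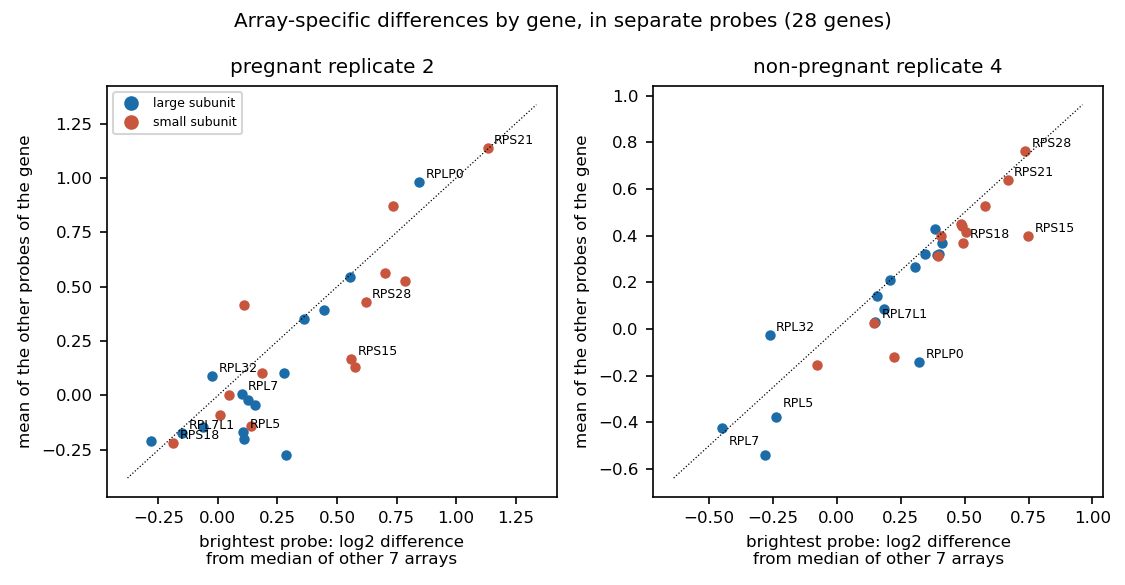
Log2 difference of pregnant replicate 2 (left) and non-pregnant replicate 4 (right) from the median of the other 7 arrays, for the brightest probe of a gene (horizontal) and the mean of its other probes (vertical), 28 of the 29 genes; the dotted line marks equal values. RPS21 lies at the top on pregnant replicate 2 and RPL7 near the bottom on non-pregnant replicate 4 in both sets of probes.

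Ribosomal protein genes have many near-identical processed copies in mammalian genomes, and a probe may read such a copy as well. Probes of the same gene had a median r of 0.960 (693 pairs), against 0.663 for probes of different ribosomal protein genes (14707 pairs). Genes with many probes, up to 18, weigh most in the 693 pairs. Such agreement cannot tell a gene from a near-identical copy, and whether probes read copies was not tested. Only 3 of the 176 probes correlated below 0 with the median profile: the brightest RPL32 probe (-0.21) and 2 of the 14 RPS4X probes (-0.27 and -0.39). The brightest RPL32 probe read 9.05, 9.45, 9.47 and 9.54 in pregnant and 9.52, 9.14, 9.60 and 9.21 in non-pregnant sows. It was thus highest on non-pregnant replicate 3, where the other 31 genes were low. The remaining 6 RPL32 probes correlated with the median profile at 0.77 to 0.95 and gave log2 differences from -0.17 to -0.10, against 0.013 for the brightest. The 3 discordant probes correlated with each other at 0.977 for the RPS4X pair and at 0.646 and 0.746 for RPL32 with each of them. What they hybridised to was not tested.

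**Figure D5:**
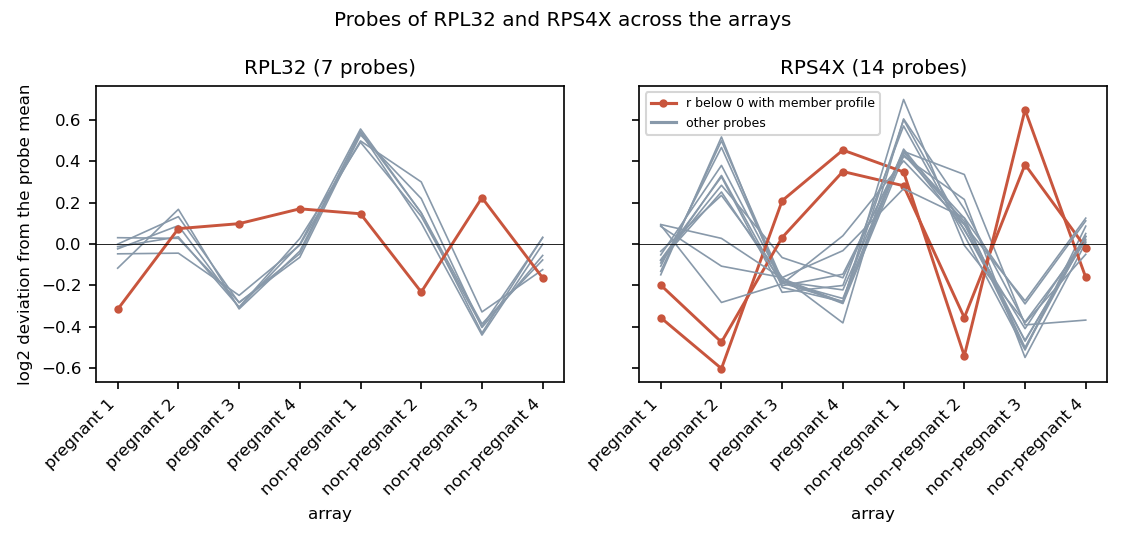
Log2 deviation from the probe mean on the 8 arrays for the 7 probes of RPL32 and the 14 probes of RPS4X. The 3 probes drawn with points correlated below 0 with the median profile of the 32 genes, and in RPL32 the 6 other probes ran together, highest on non-pregnant replicate 1.

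In 7 of the 32 genes the probes gave differences of both signs. RPL6 spanned the widest range, from -0.33 to 0.32 over 13 probes of which 6 were negative. Of the 13 RPLP0 probes only the brightest was negative, and the others gave 0.031 to 0.16. RPL7 was negative in 4 of 14 probes (-0.083 to 0.10) and RPL5 in 13 of 18 (-0.070 to 0.027). RPSA, which also serves as a laminin receptor, was negative in 4 of 6 probes. It read 7.44, 8.14, 7.39 and 7.33 in pregnant sows against 7.90, 7.68, 7.26 and 7.66 in its brightest probe, high on pregnant replicate 2 as RPLP0 was. RPL10A, at 7.91, 8.04, 7.52 and 7.71 against 8.08, 7.77, 7.5 and 8.11, was negative in 7 of 8. Over all 176 probes 135 were negative with a median of -0.096, against 56.1% and -0.040 for the 26476 probes kept. At an unadjusted p under 0.05 limma gave 0 of the 176 probes, against 2.3% of the probes kept (1.55% higher and 0.748% lower), and in 0 of 176 did the groups stand apart (1.58% of the probes kept).

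Few other genes of the translation machinery had a measured symbol. All 5 measured genes of the initiation factor list (46 listed), each with an EIF symbol, had a negative difference (median -0.061). EIF4A3 gave -0.23, EIF4A2 -0.19 and EIF1B -0.061. An EIF symbol does not by itself mean a role in initiation. EEF1A1, which carries aminoacyl-tRNA to the ribosome and was the only measured one of 12 elongation and termination factors, read 9.20, 8.72, 8.62 and 8.86 in pregnant sows and 9.57, 9.11, 8.85 and 8.87 in non-pregnant sows, a difference of -0.25. Of 8 measured ribosome biogenesis genes (78 listed) 6 were negative, with MYC, which drives ribosome production, at -0.42 and an unadjusted limma p of 0.086. UTP3 gave -0.18 and NOC3L 0.17. The only measured gene of 35 in the mTOR and S6 kinase list was AKT1 (0.51). Over the 8 arrays the median deviation correlated with the ribosomal protein profile at 0.541 for the initiation factors and 0.539 for the biogenesis genes. EEF1A1 correlated with it at 0.599 and AKT1 at 0.061. Without non-pregnant replicates 1 and 3 these 4 values were -0.059, -0.053, 0.178 and 0.461. Limma called 0 genes of these lists, with an adjusted p of 0.998 for each, and normexp background correction moved the median of all genes from -0.031 to 0.21.

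Among other genes with the pyrimidine tract, 5 of the 6 measured (25 listed) were negative with a median of -0.11. RACK1, a scaffold on the small subunit, read 8.0, 7.97, 7.77 and 7.82 against 7.95, 7.98, 7.61 and 8.05. The median deviation of these 6 genes correlated with the ribosomal protein profile at 0.728 over 8 arrays. Without non-pregnant replicates 1 and 3 it correlated at 0.417. Taken singly, RACK1 correlated with the median profile at 0.78 over 8 arrays, and TPT1, also of this list, at 0.43. HNRNPA1 correlated at -0.097 and had a difference of -0.14, and pairs within this list had a median r of 0.100. Mitochondrial ribosomal proteins were measured for 3 of 78 genes (MRPL52, MRPL2 and MRPS18B, differences -0.080, -0.070 and 0.008), and their median deviation correlated with that of the cytosolic genes at 0.241 (-0.057 without the 2 most distant arrays). For 7 measured proteasome subunits of 34 listed, the correlation was 0.630 (0.098 without those arrays), the median difference was -0.080, and pairs within the list had a median r of 0.648. The median deviation of all 1817 genes itself correlated with the ribosomal protein profile at 0.578, and at 0.084 without those 2 arrays.

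The genes of the whole table whose values followed the median profile most closely over the 8 arrays were ANAPC16 (r = 0.964), SLIRP (0.951), UQCR10 (0.946), COX6B (0.934) and NDUFB8 (0.930). ANAPC16 belongs to the anaphase-promoting complex, SLIRP binds mitochondrial RNA, and the remaining 3 are subunits of the respiratory chain. UQCR10 read 4.99, 5.19, 4.71 and 4.80 in pregnant and 5.30, 5.08, 4.57 and 5.37 in non-pregnant sows, lowest on non-pregnant replicate 3 as the ribosomal protein genes were. Their log2 differences lay between -0.20 and -0.06.

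Markers of blood cell types moved with some of these values. The platelet list (5 of 8 measured, 4 negative, median difference -0.18) correlated with the ribosomal protein profile at 0.717, the T cell list (8 of 9, all negative, median -0.35) at 0.343 and the neutrophil list (4 of 7, 2 negative) at 0.411. The monocyte list (3 of 6, none negative, median 0.65) correlated at -0.588, while its 3 genes taken singly ran from -0.56 to -0.10. Pairs within a list had a median r of 0.259 for platelets, 0.533 for T cells, 0.424 for neutrophils and 0.030 for monocytes. A list median therefore need not stand for each of its genes. The correlations with the ribosomal protein profile changed without non-pregnant replicates 1 and 3, its 2 most distant arrays. They became 0.633 for platelets, 0.170 for T cells, 0.709 for neutrophils and -0.866 for monocytes. These values therefore depend on a few arrays, and the median of all genes correlated at 0.578 and, without those arrays, at 0.084. The log2 of the summed T cell level ran from 5.52 to 5.98 in pregnant and from 5.94 to 6.14 in non-pregnant sows, and that of the monocyte markers from 5.58 to 5.95 and from 5.0 to 5.43. CD8A (-0.56) and CD3D (-0.59) were the T cell genes of smallest p and LYZ (0.65) the monocyte gene, all with a limma adjusted p of 0.998. The 2 measured erythroid genes, KLF1 and HBE1, had a median deviation of -1.30 on pregnant replicate 1 and 1.72 on pregnant replicate 2. They correlated with the profile at 0.176 (0.496 without non-pregnant replicates 1 and 3). The log2 of their summed level ran from 3.19 to 7.05 in pregnant and from 4.32 to 5.90 in non-pregnant sows, and that of the platelet markers from 10.40 to 11.58 and from 10.64 to 11.15. B cell markers (2 of 7, median -0.28) correlated at 0.416 (0.106 without the same 2 arrays) and NK cell markers (3 of 6, median -0.29) at 0.208 (0.447). Pairs of the NK cell markers had a median r of -0.372. On the same scale the neutrophil markers ran from 5.34 to 7.76 in pregnant and from 6.59 to 8.98 in non-pregnant sows, the B cell markers from 0.98 to 1.44 and from 1.14 to 1.69, and the NK cell markers from 3.15 to 3.92 and from 3.70 to 4.22. A sum gives the brighter probes more weight. The groups did not overlap for CD8A and CD3D, 2 of the 8 T cell genes, against 25 of all 1817 genes (1.38%). They overlapped for each of the 3 monocyte genes by itself. Limma's unadjusted p was 0.025 for CD8A, 0.049 for CD3D and 0.048 for LYZ. At an unadjusted p under 0.05 limma thus gave 2 of 8 T cell and 1 of 3 monocyte genes, against 2.42% of all genes. It gave 0 genes in each of the other cell type lists. The ribosomal protein profile correlated with the share of probes well above background at -0.567 (rho -0.643). Here the 2 arrays most distant in that share were pregnant replicate 2 and non-pregnant replicate 4, and without them r was -0.422. With the log2 of the 75th percentile signal the profile correlated at -0.284. The part of cell make-up and signal in the ribosomal protein profile was not tested.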

How the data were processed

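Each array has 1 deposited scanner file, whose file header names Agilent Feature Extraction 10.7.3.1 (the submitters' processing notes give 10.7). The processed signal used here is an intensity that was background-subtracted and left without normalization between arrays, per the file headers. Median spot and local background intensities were read from these deposited files too. A deposited table of log2 values served as an alternative: its quartiles (2.19, 5.03 and 7.76) were equal in all 8 columns, each column followed its own array (r of 0.99895 or higher) in the direction of the signal, and its normalization and centring are unknown here.

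Control and outlier spots were left out, spots of a probe were averaged, and log2 signals were scaled on the 75th percentile. Of 43603 probes, 215 were dropped and 26476 (60.7%) were kept because 1 group or both had them well above background throughout. Of 5779 probes with a RefSeq transcript, 5461 matched 2389 symbols of the Sscrofa11.1 table, used for names only; other probes stayed unnamed. Groups were compared with limma 3.58.1 in R 4.3.3, two-sided, Benjamini-Hochberg adjusted over all 1817 genes, threshold 0.05, and the scripts were tested on simulated data. Tables used pandas 2.3.3 in Python 3.11.15 and plots matplotlib 3.10.9. Members and lists were chosen with earlier results of these data known. The members named were those with the 4 most positive and 4 most negative differences, the 3 largest and 3 smallest SDs, the 4 best and 4 least correlated with the other members, and up to 6 with probes of opposite sign (19 genes); members whose separate probes or array values stood out were added after their values were seen. Outside the members, up to 3 genes per pathway list and 2 per cell type list, by unadjusted p, and the 5 genes most like the profile were named. TPT1, HNRNPA1 and RACK1 were partly chosen after their values were seen. Values of 2 genes, counted in the totals and medians, are not reported here.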

Additional observations from a re-analysis of the deposited data

Results flagged for a closer look

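Each of 31 genes was examined in each group of 4 sows, with the median profiles of all 32, the large and the small subunit genes, for 1 array far from the other 3 (a gap to the nearest array above Dixon's 95% critical value). Of 68 groups examined, 6 stood out, where chance alone gives about 1 in 20 for independent groups; these groups are not independent, because the genes correlate and share arrays. All 6 were in pregnant sows, and 4 of them were pregnant replicate 2, the array with the lowest 75th percentile signal. There RPLP0 read 9.90 against 9.0 to 9.06 on the other pregnant arrays and RPS12 9.86 against 9.04 to 9.08. RPS20 read 10.2 against 9.30 to 9.42, and RPSA 8.14 against 7.33 to 7.44. On pregnant replicate 3, RPL22 read 7.05 against 7.42 to 7.48 and RPS3A 7.89 against 8.30 to 8.35.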

How the results depend on the processing

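Alternatives were quantile normalization, scaling on the array median, normexp (offset 50), the deposited log2 table, 2 other filters, the mean of a gene's probes, a fit over all probes, the slide as a block, each slide alone and each array left out. Median signal minus local background (floor of 1) and leaving out RPL26L1, RPL7L1 and RPL36AL were chosen after seeing the data. In every refit limma called 0 of the 32 genes and 0 of all genes, and 29 to 61 genes of all had an unadjusted p under 0.05. The median difference of the 32 genes stayed between -0.21 and -0.063 except under normexp and with arrays left out.

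Normexp gave medians of 0.74 for all 32 genes, 0.75 for the large and 0.72 for the small subunit (0.21 for all genes), a median pairwise r of 0.955, and 1 gene of the 32 at an unadjusted p under 0.05. Its fitted background means were -2.81, -47.0, -2.92 and -699 in pregnant replicates 1 to 4. In non-pregnant replicates 1 to 4 they were -748, -433, -92.3 and -811. Local background medians were 33 to 35, and subtracting the local background in place of normexp gave a median of -0.15. Named genes turned positive under it: RPL10A 0.75, RPL11 0.74, RPL23 0.68, RPL30 0.53, RPL35 0.80, RPL36AL 0.68, RPL5 0.84, RPL6 0.73, RPLP0 0.80, RPS15 0.76, RPS18 0.70, RPS21 0.76, RPS23 0.53, RPS28 0.63, RPS3 0.59 and RPSA 0.80. Scaling on the array median gave a pairwise r of 0.838 and RPL32 at -0.0073. RPL32 was -0.11 and RPLP0 0.076 with the mean of probes, and RPL32 -0.053 after local background subtraction. Slide 1 alone gave RPL32 -0.29, RPL7 -0.15, RPL7L1 -0.11 and RPS15 0.030. Slide 2 alone gave RPL35 0.16, RPL5 0.14, RPL6 0.13, RPLP0 0.083, RPS21 0.048 and RPSA 0.063. Beyond what their construction shows, the causes were not tested.

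With 1 array left out, the median difference ran from -0.32 to 0.003, that of the large subunit from -0.29 to 0.016 and of the small subunit from -0.33 to -0.069, and the pairwise r from 0.688 to 0.819. Differences that changed sign ran from -0.19 to 0.021 for RPL10A, -0.062 to 0.12 for RPL32, -0.34 to 0.17 for RPL35, -0.36 to 0.021 for RPL36AL, -0.19 to 0.12 for RPL5, -0.32 to 0.14 for RPL6, -0.091 to 0.27 for RPL7, -0.14 to 0.27 for RPL7L1, -0.29 to 0.037 for RPLP0, -0.33 to 0.065 for RPS15, -0.43 to 0.048 for RPS21 and -0.24 to 0.040 for RPSA.

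With the replicate number as a block, limma called 0 genes and the median of the 32 genes was -0.14; 56 genes had an unadjusted p under 0.05, against 44 without it. Same-numbered sows deviated with r of 0.426, 0.516, 0.393 and 0.060, and pregnant replicates 1 to 3, but not 4, correlated best with their own number. This is a hint from the data, but same-numbered sows also shared a slide, and the part of the slide was not tested. The labels do not tie the numbers to the half-sib pairs, and whether they do was not settled. All 176 probes were well above background on every array, so none of these values is only a bound.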
